A study of Mus musculus with 9 samples.

Results

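The 10 genes described here are markers of macrophages and of leukocytes at large, read in cultures of mouse granulosa cells: Ptprc, Laptm5, Lyz2, Csf1r, Cd68, Adgre1, Cd14, Tyrobp, Fcer1g and C1qb. They were chosen by name, and every probe set whose only gene symbol was one of these names was taken, which gave 19 probe sets of 45037 tested and 10 genes of 18193 measured. Granulosa cells, the steroid-producing cells that line the ovarian follicle, were collected by needle puncture of ovaries of 20 to 26 day old mice 48 h after equine chorionic gonadotropin, a hormone that makes follicles grow. The cells were plated overnight in DMEM/F-12 with 1% fetal bovine serum and then exposed for 24 h without serum to an adenovirus at a multiplicity of infection of about 50. The virus carried WNT4, a secreted signalling protein (WNT4 group), Cre recombinase (Cre group), or enhanced green fluorescent protein (GFP group, the control), and each group had 3 arrays titled as biological replicates 1 to 3. The mice were of various genotypes, and the labels do not tie a genotype to an array. Expression was read on Affymetrix mouse genome arrays, which give 1 brightness per probe set, here as log2 values from RMA (robust multi-array average). Nothing in the labels says that cells of blood origin were removed or sorted, so a marker's level is its level in the whole culture, in which fewer cells of a type and less RNA per cell cannot be told apart.

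Macrophages are phagocytes that live in most tissues, the ovary included, where they take up dying follicle cells and the remains of the corpus luteum. All blood-derived cells apart from red cells carry the phosphatase CD45, encoded by Ptprc. Macrophages add to it the receptor for the growth factor CSF1, a large lysosomal system, receptors for bacterial lipopolysaccharide and complement proteins. Many of their genes are driven by the transcription factor PU.1, the product of Spi1, which binds purine-rich sites that often contain the letters GAGGAA.

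The promoter entries of RefSeq (build GRCm38.p6, 250 bases before to 50 after a gene's start) matched 6 of the 10 genes, and 4 are shown: Ptprc, Cd68, Lyz2 and C1qb. Over the 9 arrays Ptprc and Cd68 followed each other with a Pearson's r of 0.95. Lyz2 had an r of 0.61 with Ptprc and 0.77 with Cd68, and C1qb had -0.47 and -0.30. Capitals mark GAGGAA, or TTCCTC where the motif lies on the opposite strand. The Ptprc window is chr1:138175256-138175555, the Cd68 window chr11:69666121-69666420, the Lyz2 window chr10:117282223-117282522 and the C1qb window chr4:136886151-136886450, each on the minus strand and printed 5′ to 3′.
Ptprc: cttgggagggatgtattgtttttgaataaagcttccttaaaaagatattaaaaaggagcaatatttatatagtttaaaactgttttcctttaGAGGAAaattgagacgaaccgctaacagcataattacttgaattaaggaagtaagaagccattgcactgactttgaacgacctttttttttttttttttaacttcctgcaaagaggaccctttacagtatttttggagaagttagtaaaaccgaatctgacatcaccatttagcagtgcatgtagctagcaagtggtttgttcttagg
Cd68: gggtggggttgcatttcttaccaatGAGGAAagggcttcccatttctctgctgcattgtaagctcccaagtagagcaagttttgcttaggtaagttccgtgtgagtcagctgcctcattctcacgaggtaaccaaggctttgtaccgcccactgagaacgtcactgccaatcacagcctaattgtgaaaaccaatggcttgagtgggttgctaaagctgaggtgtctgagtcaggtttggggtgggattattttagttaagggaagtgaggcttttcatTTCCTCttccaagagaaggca
Lyz2: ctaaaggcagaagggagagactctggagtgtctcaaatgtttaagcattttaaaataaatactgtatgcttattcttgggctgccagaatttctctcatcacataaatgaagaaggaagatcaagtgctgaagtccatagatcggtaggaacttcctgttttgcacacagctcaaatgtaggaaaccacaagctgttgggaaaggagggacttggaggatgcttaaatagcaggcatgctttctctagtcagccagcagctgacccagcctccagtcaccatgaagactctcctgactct
C1qb: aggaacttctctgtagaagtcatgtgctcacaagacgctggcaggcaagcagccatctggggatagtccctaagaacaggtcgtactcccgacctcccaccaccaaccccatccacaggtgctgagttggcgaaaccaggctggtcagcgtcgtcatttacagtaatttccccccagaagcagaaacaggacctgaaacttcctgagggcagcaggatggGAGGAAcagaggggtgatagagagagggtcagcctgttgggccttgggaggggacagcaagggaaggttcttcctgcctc
The motif stood at position -158 from the start in Ptprc and at -30 in C1qb. Cd68 held it at -225 and, on the opposite strand, at 30. The Lyz2 window did not hold these letters, which does not exclude another form of the site. Of the other windows searched, Laptm5 held 1 copy on the opposite strand, at -38, and neither Fcer1g nor a further Ptprc start had one. Over all 32851 promoter windows of the same length, 28.3% held GAGGAA on either strand, so a match is common. Ptprc and C1qb, which both held the motif, differed in their pattern over the arrays, as described next. Any link between the motif and these levels was not tested.

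The arrays matched their tissue label by granulosa genes. Inha, which encodes the inhibin alpha subunit, lay between 12.9 and 14.0 on all 9 arrays, and the transcription factor gene Foxl2 between 10.1 and 10.7. Array medians lay between 5.44 and 5.54. Wnt4, the gene carried by the virus of the WNT4 group, did not separate the groups as labelled. Its brighter probe set was at 8.97, 9.89 and 9.16 on the arrays labelled WNT4, 11.25, 10.47 and 10.18 on those labelled Cre, and 9.93, 9.16 and 9.13 on those labelled GFP. The other Wnt4 probe set was at 9.91, 9.62 and 8.36 on WNT4 arrays, 10.01, 9.81 and 9.05 on Cre arrays, and 9.13, 7.57 and 8.27 on GFP arrays, higher on WNT4 than on GFP arrays on average but overlapping, and highest on Cre arrays. A viral transcript need not contain the stretches that these probe sets read, and they therefore do not check the labels. Ctnnb1, which Cre can delete only where it is floxed, was at 12.96, 13.55 and 13.33 on Cre arrays against 13.40, 12.92 and 13.42 on GFP arrays. The labels do not say which arrays came from floxed cells, so these values do not check the labels either. Directions below are between arrays as labelled.

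The general leukocyte markers are Ptprc and Laptm5, which encodes a lysosomal membrane protein of blood cells. Ptprc was dim, at 4.82, 4.84 and 5.68 on WNT4 arrays 1 to 3, at 4.50, 4.84 and 5.69 on Cre arrays, and at 4.46, 4.34 and 5.49 on GFP arrays. In each group the array numbered 3 stood above the other two, and no array numbered 1 or 2 reached any of the arrays numbered 3. Laptm5, read from its brightest probe set (1447742_at), was at 6.98, 10.22 and 8.76 on WNT4 arrays, 10.90, 10.17 and 10.61 on Cre arrays, and 10.999, 10.64 and 10.69 on GFP arrays. Only WNT4 arrays 1 and 3 were low, array 1 most of all.

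Lyz2 and Cd68 belong to the phagocyte's digestive equipment. Lyz2 encodes the lysozyme of macrophages and was at 8.55, 9.15 and 9.20 on WNT4 arrays, 8.27, 9.57 and 9.19 on Cre arrays, and 9.14, 8.20 and 9.69 on GFP arrays. Its lowest arrays were GFP 2 and Cre 1 and its highest GFP 3 and Cre 2, so the groups overlapped. Lyz1 is a near-identical copy of Lyz2, and 2 of its probe sets followed Lyz2 with r of 0.96 and 0.97 over the 9 arrays, while the third did not (r = -0.34). Lyz2 is therefore reported as uncertain, because the RNA of both copies may bind the same probes and cannot be told apart. Cd68, which encodes a glycoprotein of late endosomes and lysosomes, was at 6.53, 7.09 and 7.71 on WNT4 arrays, 6.42, 7.12 and 7.77 on Cre arrays, and 6.56, 6.15 and 7.51 on GFP arrays. As for Ptprc, the array numbered 3 was the highest of each group.

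Csf1r and Adgre1 encode surface receptors of macrophages, the receptor for CSF1 and an adhesion receptor whose antibody is a standard stain for mouse macrophages. Csf1r (1419872_at) was at 6.03, 6.60 and 8.23 on WNT4 arrays, 6.83, 7.05 and 8.44 on Cre arrays, and 7.01, 6.80 and 7.87 on GFP arrays. Adgre1 was at 5.99, 6.43 and 7.5 on WNT4 arrays, 6.53, 6.59 and 7.56 on Cre arrays, and 6.59, 6.46 and 7.13 on GFP arrays. Both genes ranked the arrays alike, with Cre 3 and WNT4 3 at the top, GFP 3 next and WNT4 1 at the bottom.

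Cd14 encodes the coreceptor that hands lipopolysaccharide to the TLR4 complex. It was at 6.15, 6.08 and 8.0 on WNT4 arrays, 5.75, 6.05 and 8.03 on Cre arrays, and 6.01, 6.44 and 6.47 on GFP arrays. WNT4 3 and Cre 3 stood apart from the other 7 arrays, while GFP 3 was 0.24 above the mean of GFP 1 and 2.

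Tyrobp and Fcer1g encode membrane adaptors that pass signals from activating receptors to the kinase Syk. Tyrobp was at 5.94, 6.43 and 6.05 on WNT4 arrays, 5.97, 6.18 and 6.26 on Cre arrays, and 6.49, 6.18 and 6.74 on GFP arrays, with WNT4 1 lowest and GFP 3 highest. Fcer1g was at 6.05, 6.03 and 6.66 on WNT4 arrays, 5.68, 5.76 and 6.30 on Cre arrays, and 5.93, 6.10 and 6.14 on GFP arrays, where GFP 3 and GFP 2 lay close together. C1qb encodes a chain of the complement protein C1q, which tissue macrophages make. It was dim, at 5.09, 5.68 and 4.79 on WNT4 arrays, 5.17, 5.23 and 4.85 on Cre arrays, and 5.59, 5.16 and 5.46 on GFP arrays. Here WNT4 3 and Cre 3, the top arrays of Cd14, were the lowest of all 9.

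**Figure D1:**
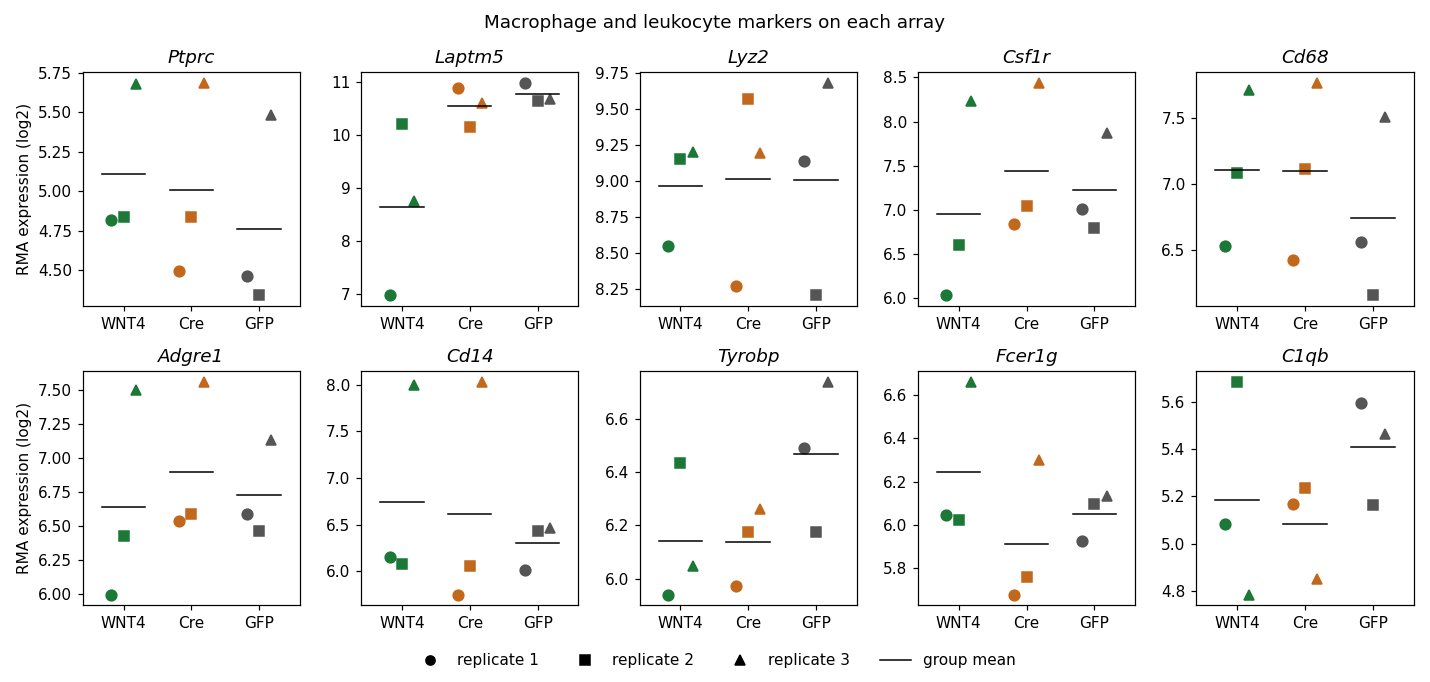
RMA expression (log2, vertical axis with its own range in each panel) of the 10 genes on each of 9 arrays by virus group, with circles, squares and triangles for replicates 1, 2 and 3 and a line at each group's mean. The triangles are highest in every group for Ptprc, Csf1r, Cd68, Adgre1, Cd14 and Fcer1g, and Laptm5 is low on WNT4 1 (6.98) and WNT4 3 (8.76).

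The first question is whether the virus changed the markers. None of the 10 genes passed an adjusted p under 0.05 in any of the 3 comparisons (limma fitted to all 9 arrays, Benjamini-Hochberg adjustment over 45037 probe sets). The same rule called 0.0155% of all probe sets in WNT4 against GFP, 0% in Cre against GFP and 0% in WNT4 against Cre, so the arrays gave few calls for any gene. After centring on the 75th percentile the overall median difference was -0.15 in WNT4 against GFP, and the probe sets past an unadjusted p under 0.05 were then 2056 higher and 4765 lower, against 4109 higher and 1761 lower as reported. At an unadjusted p under 0.05, Laptm5 passed in WNT4 against GFP, where 13% of all probe sets passed, and in WNT4 against Cre, where 6.23% of all passed. No member passed in Cre against GFP, where 2.23% of all did. The p-values measure the spread between these cultures, and an exact permutation test of 3 arrays against 3 cannot go below 0.1.

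Laptm5 averaged 8.66 ± 1.62 on WNT4 arrays and 10.78 ± 0.19 on GFP arrays (SD, n = 3 each), a difference of -2.12 ± 0.66 (SE), 4.35-fold lower, with a limma adjusted p of 0.254. Without WNT4 replicate 2 the difference was -2.91 and its adjusted p 0.0399, the only call of a member under any alternative adjusted over all probe sets, and 748 probe sets were then called in all. Without WNT4 replicate 1 the difference was -1.28, and for the mean of all Laptm5 probe sets it was -0.37. Against the Cre arrays, which averaged 10.56 ± 0.37, Laptm5 differed by -1.90 ± 0.66 (limma adjusted p = 0.773), by -1.07 without WNT4 replicate 1 and by -0.36 for the mean of all its probe sets. Groups did not overlap for Laptm5 in WNT4 against GFP, as for 14.8% of all probe sets. Each other member's groups overlapped in this comparison. In Cre against GFP and in WNT4 against Cre all 10 overlapped, beside 6.02% and 8.23% of all probe sets without overlap.

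The other 4 probe sets of Laptm5 varied less. The probe set 1417721_s_at lay between 6.09, on WNT4 1, and 6.67, and had r = 0.65 with 1447742_at over the 9 arrays and 0.79 over the 6 numbered 1 and 2. The probe set 1426025_s_at lay between 5.92 and 6.39 (r = 0.39 with 1447742_at over the 9 arrays) and 1459841_x_at between 4.01 and 4.37 (r = 0.16). The probe set 1436905_x_at was at 6.19, 5.86 and 7.28 on WNT4 arrays, 5.61, 6.64 and 6.97 on Cre arrays, and 5.84, 5.07 and 6.97 on GFP arrays. It was highest on the array numbered 3 of each group, the pattern of Ptprc and Cd68 and not that of 1447742_at. A difference of the size of -2.12 is therefore a statement about 1 probe set of 5. Whether 1447742_at reads Laptm5 RNA was not tested, since probe sequences were not used here.

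Tyrobp averaged 6.14 ± 0.26 on WNT4 arrays, 6.14 ± 0.15 on Cre arrays and 6.47 ± 0.28 on GFP arrays (SD, n = 3 each). It differed by -0.33 ± 0.17 in WNT4 against GFP (limma adjusted p = 0.469) and by -0.33 ± 0.17 in Cre against GFP (limma adjusted p = 0.9999). C1qb differed by -0.32 ± 0.22 in Cre against GFP, and Fcer1g by 0.33 ± 0.21 in WNT4 against Cre, with limma adjusted p-values of 0.9999 and 0.896. The 8 remaining genes of each comparison lay within 1 standard error of 0 in this fit, which has no block. They ranged over -0.27 to 0.44 in WNT4 against GFP, -0.22 to 0.36 in Cre against GFP and -0.49 to 0.13 in WNT4 against Cre. With replicate number as a block, the standard error was 0.22 in place of 0.61 for Csf1r and 0.38 in place of 0.65 for Cd14. Csf1r then differed by -0.49 ± 0.22 in WNT4 against Cre (limma adjusted p = 0.69), and it was lower on the WNT4 array of each number. No member was called with the block.

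The median difference over the 10 genes was -0.064 in WNT4 against GFP, 0.085 in Cre against GFP and 0.0048 in WNT4 against Cre, beside -0.0016, -0.016 and 0.023 over all probe sets. Its sign rested on single arrays. In WNT4 against GFP it was 0.21 without WNT4 replicate 1 and 0.17 without GFP replicate 3, and no more than -0.04 without any other array. In Cre against GFP it was -0.23 without Cre replicate 3, -0.06 without GFP replicate 2, and up to 0.36 otherwise. In WNT4 against Cre it was -0.14 without WNT4 replicate 2, -0.24 without WNT4 replicate 3, -0.32 without Cre replicate 1, and up to 0.16 otherwise.

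**Figure D2:**
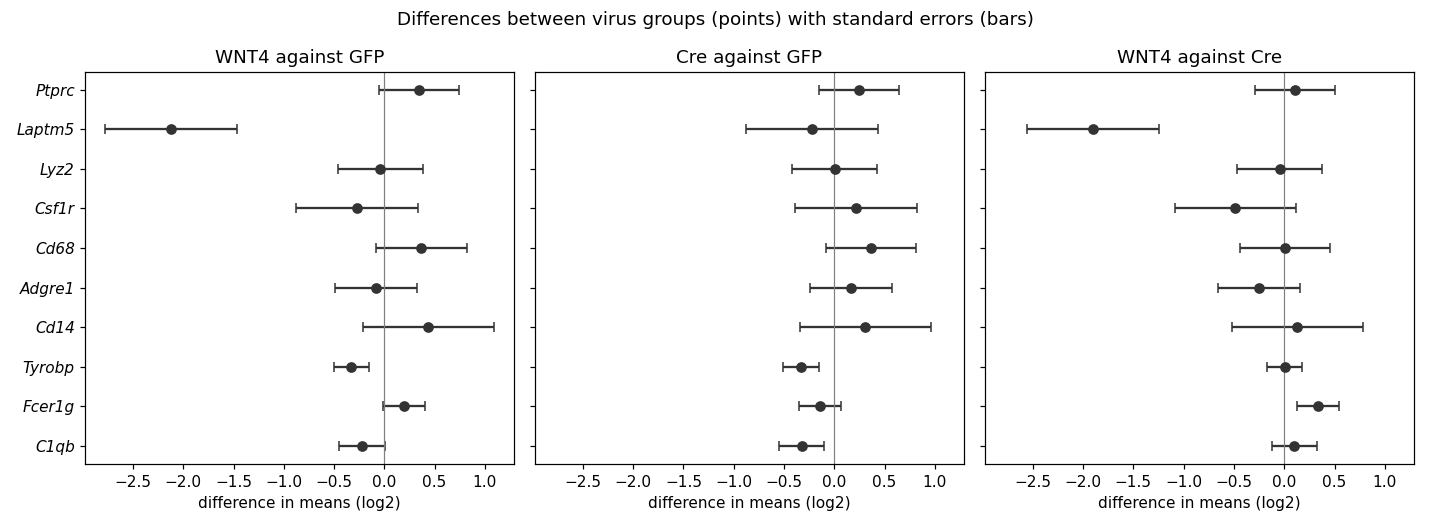
Difference in mean log2 expression between virus groups (horizontal axis) for the 10 genes, with points for the limma estimate over all 9 arrays and bars for 1 standard error. Only Laptm5, at -2.12 and -1.90, lies more than 1 log2 unit from 0.

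The markers also differed by replicate number. The array numbered 3 was the highest of its group in all 3 groups for 6 of 10 genes, Ptprc, Csf1r, Cd68, Adgre1, Cd14 and Fcer1g, and for 7 of 19 probe sets, beside 9.72% of all probe sets and 15.3% of those with a mean of at least 6. The count was 6 after median centring, but 5 after quantile normalization, where Cd14 dropped out, and 4 after centring on the 75th percentile, where Cd14 and Fcer1g dropped out. No member was highest on the array numbered 1 in every group, or on that numbered 2, beside 3.36% and 2.28% of all probe sets. This pattern was seen in the data before it was counted.

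The array numbered 3 exceeded the mean of arrays 1 and 2 by 1.92 in the WNT4 group, 1.5 in the Cre group and 0.96 in the GFP group for Csf1r. For Cd68 the same excess was 0.91, 1.00 and 1.16, for Adgre1 1.29, 1.00 and 0.61, and for Ptprc 0.85, 1.02 and 1.08. These 4 genes were high on all 3 arrays numbered 3. Cd14, with 1.88, 2.13 and 0.24, and Fcer1g, with 0.63, 0.58 and 0.12, were high on WNT4 3 and Cre 3 and scarcely on GFP 3. Lyz2 ran the other way, with 0.35, 0.27 and 1.02. Over the 10 genes the median excess was 0.74, 0.79 and 0.51, beside a median within 0.01 of 0 over all probe sets in each group.

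A moderated F test of replicate number with virus in the model, added after the pattern had been seen, called 0 of 45037 probe sets at a limma adjusted p under 0.05. At an unadjusted p under 0.05 it passed 10.6% of all probe sets and 6 of the 10 genes. These were Ptprc (limma adjusted p = 0.157), Csf1r (0.197), Adgre1 (0.245), Cd68 (0.268), Cd14 (0.324) and Fcer1g (0.362). The labels do not say whether arrays of 1 number share a day, an animal or a culture.

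Other values also moved with the arrays numbered 3. The 3′ minus 5′ difference of the Gapdh control probe sets, a measure of RNA length on these arrays, was 2.17, 1.88 and 1.36 on WNT4 arrays, 1.79, 1.86 and 0.95 on Cre arrays, and 1.80, 1.80 and 1.77 on GFP arrays, lowest on the array numbered 3 of each group. The same difference for actin was 1.38, 0.98 and 1.30 on WNT4 arrays, 1.05, 1.13 and 1.07 on Cre arrays, and 1.28, 1.12 and 1.08 on GFP arrays, with no such order. The 10 oocyte genes measured had a median excess of -0.86, -0.92 and -0.60 on the arrays numbered 3, and the 13 granulosa genes -0.29, -0.43 and 0.00. The part of any of these in the marker levels was not tested.

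How alike the markers were across arrays was measured by Pearson's r over the 9 arrays for each of the 45 pairs of genes. The median r was 0.39, 22 pairs (48.9%) exceeded 0.5 and 11 lay below 0. Among all pairs of the 18193 genes, 14.8% exceeded 0.5, and among the genes with a mean of at least 6 it was 23.3%. By Spearman's rho 20 of the 45 exceeded 0.5. After removal of the group means 24 did, with a median r of 0.51. In an exact permutation test over all orders of the arrays, adjusted over the 45 pairs, 10 pairs passed 0.05 by Pearson's r and 3 by Spearman's rho. This test treats the 9 arrays as exchangeable, although they lie in 3 virus groups. Over all probe sets, deviations from the group means of WNT4 3 and Cre 3 correlated at 0.77. The permutation p-values given here may therefore be too low.

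The closest pair was Csf1r with Adgre1, at r = 0.996 and rho = 0.996 (exact permutation adjusted p = 0.000248). Without the 2 arrays farthest from the median of the first gene it was 0.99. Ptprc and Cd68 had r = 0.95 (adjusted p = 0.00174, exact permutation; 0.90 without the 2 farthest arrays). Cd14 and Fcer1g had r = 0.88 (adjusted p = 0.00174, exact permutation; 0.87 without the 2 farthest arrays). These are also the 3 pairs that passed by Spearman's rho. Against the rest, C1qb ran opposite to Cd14, with r = -0.72 (adjusted p = 0.107, exact permutation). This opposition rested on 2 arrays: without the 2 farthest from the median of Cd14, r was 0.03.

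Much of the agreement rested on the arrays numbered 3. Among the 6 genes that were highest there, all 15 pairs exceeded 0.5 over 9 arrays, with a median of 0.82, as their choice by that order would give. Over the 6 arrays numbered 1 and 2, 3 of these 15 pairs exceeded 0.5, 10 lay below 0 and the median was -0.21. Adgre1 with Cd14, for example, had r = 0.85 over 9 arrays and -0.27 over the 6, and Ptprc with Csf1r 0.82 and -0.41. Over all 45 pairs, 12 (26.7%) exceeded 0.5 on the 6 arrays with a median of 0.16 and 18 below 0, beside 21.8% of all gene pairs and 33.4% of pairs of genes with a mean of at least 6. On these 6 arrays the markers as a set therefore agreed about as often as any genes.

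The same 3 pairs kept an r above 0.5 on the 6 arrays: Csf1r with Adgre1 0.98 (exact permutation p = 0.00278, 0.125 after adjustment), Ptprc with Cd68 0.83 and Cd14 with Fcer1g 0.83. On these 6 arrays Ptprc lay between 4.34 and 4.84, within the range of the Y-linked genes given below, so its r there is uncertain. Lyz2 with Cd68, at 0.77 over 9 arrays (exact permutation adjusted p = 0.0584), had 0.88 on the 6, and Tyrobp with C1qb, at 0.67 over 9 arrays (exact permutation adjusted p = 0.136), had 0.93. Laptm5 followed Csf1r at 0.90 and Adgre1 at 0.95 on the 6 arrays, where WNT4 1 was the lowest array of all 3 genes. None of the 45 pairs passed an adjusted p under 0.05 on the 6 arrays, and 6 passed unadjusted (exact permutation test).

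**Figure D3:**
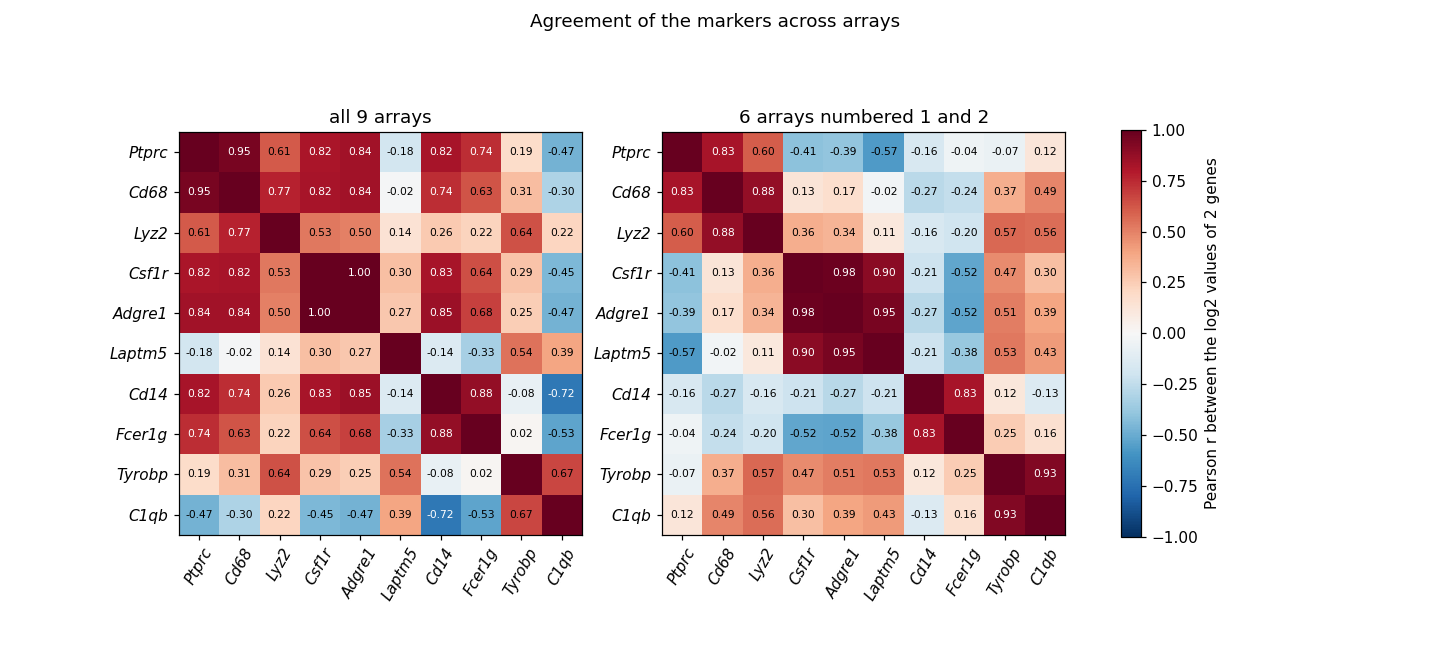
Pearson's r between the log2 values of each pair of the 10 genes, over all 9 arrays in one panel and over the 6 arrays numbered 1 and 2 in the other, with red above 0 and blue below. Of 45 pairs, 22 exceed 0.5 over 9 arrays and 12 over the 6, and Csf1r with Adgre1 stays at 0.98.

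Seen array by array, Cre 3 and GFP 3 had 9 of the 10 genes above the gene's own mean over the 9 arrays, and WNT4 3 had 7. WNT4 1 had 0, Cre 1 had 1, GFP 2 had 2, Cre 2 and GFP 1 had 4, and WNT4 2 had 5. The mean deviation over the 10 genes was lowest on WNT4 1 (-0.69), to which Laptm5 gave the largest share, and highest on Cre 3 (0.57) and GFP 3 (0.42).

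Probe sets of 1 gene did not always agree. The Ptprc probe set 1440165_at lay between 4.25 and 4.92 and had r = -0.21 with 1422124_a_at, the one described above. For Csf1r, 1419873_s_at was at 6.22, 6.73 and 7.01 on WNT4 arrays, 6.73, 6.35 and 7.16 on Cre arrays, and 6.59, 6.99 and 6.83 on GFP arrays, high on WNT4 3 and Cre 3 but not on GFP 3, and 1423593_a_at stayed between 5.91 and 6.45. The other probe sets of C1qb stayed between 5.0 and 5.37 and between 4.16 and 4.52. So the excess on the arrays numbered 3 was read by 1 of 2 probe sets for Ptprc and by 1 of 3 in every group for Csf1r, while Cd68, Adgre1, Cd14 and Fcer1g have a single probe set.

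The partners of these proteins were described from lists of known biology. Genes named from the lists, beyond those of lowest p in the comparisons with GFP, were picked after their values had been seen. No gene of any list was called over all probe sets in any comparison. Among all probe sets, 9.72% were highest on the array numbered 3 in every group. Among 6 ligands and receptors of the CSF family, Csf1, the ligand of the CSF1 receptor, stayed between 7.55 and 7.99, and Il34, its other ligand, between 5.5 and 6.22. Csf2rb alone was highest on the array numbered 3 in every group. Of 7 complement genes (C1qb among them) none was, and C1qa, whose product joins that of C1qb in C1q, lay between 5.28 and 5.81.

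Of 7 genes for lipopolysaccharide recognition, 4 passed an unadjusted p under 0.05 in WNT4 against GFP, with a list median of 0.34. Among all probe sets 13% passed, and 2 of the 7 genes had a mean of at least 6. After quantile normalization 2 passed, with a median of 0.29. After median centring 3 passed, and after centring on the 75th percentile 2. Tlr2 was highest on the arrays numbered 3. It was at 5.34, 5.66 and 7.45 on WNT4 arrays, 5.57, 5.51 and 6.79 on Cre arrays, and 5.71, 5.71 and 5.75 on GFP arrays, which is the order seen for Cd14. Tlr4, the receptor that works with Cd14, stayed between 4.91 and 5.47. Ly96, its partner MD-2, differed by 0.43 ± 0.14 in WNT4 against GFP and by 0.48 ± 0.14 in Cre against GFP. Myd88, the adaptor of these receptors, differed by 0.46 ± 0.15 in WNT4 against GFP.

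Among 12 receptors and kinases that work with the Tyrobp and Fcer1g adaptors, Clec7a (dectin-1) and Fcgr3 (an Fc receptor) were highest on the array numbered 3 in every group. Trem2, which signals through Tyrobp, lay between 6.44 and 7.13, and Syk between 6.11 and 6.73. Inpp5d, the phosphatase SHIP1, differed by -0.53 ± 0.15 in WNT4 against GFP. Among 6 substrates and regulators of CD45, Src alone was highest on the arrays numbered 3, and Fyn differed by 0.56 ± 0.11 in WNT4 against GFP.

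The lysosomal and phagosomal list was compared between WNT4 and GFP arrays at an unadjusted p under 0.05. Of its 15 genes, 8 passed, beside 13% of all probe sets and 20% in a fit of those with a mean of at least 6, as 12 of the 15 had. The list's median difference was 0.42, beside -0.0016 over all probe sets and 0.16 over those with a mean of at least 6. It was 0.15 after quantile normalization and 0.27 after centring on the 75th percentile, and 4 and 5 genes then passed. Ctsd (cathepsin D) differed by 0.73 ± 0.14, Ctsb (cathepsin B) by 0.70 ± 0.16, Lamp1 by 0.70 ± 0.17 and Gpnmb by 0.77 ± 0.24. Ctsd, Ctsb and Lamp1 are expressed by most cells, granulosa cells included. Ctsd was bright, at 12.65, 12.40 and 12.65 on WNT4 arrays, 11.995, 12.08 and 12.22 on Cre arrays, and 11.74, 11.64 and 12.14 on GFP arrays. None of Ctsd, Ctsb, Lamp1 and Gpnmb was highest on the array numbered 3 in every group, as Cd68 was. Ctss (cathepsin S), Cybb and Ncf1 (parts of the phagocyte oxidase) were, and Ctss was at 8.93, 9.20 and 9.97 on WNT4 arrays, 8.50, 9.26 and 9.73 on Cre arrays, and 8.94, 8.46 and 10.14 on GFP arrays.

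A wider list of 27 other macrophage markers was read the same way, and 6 of them were highest on the array numbered 3 in every group: Cd53, Ctss, Cybb, Itgb2, Mpeg1 and Plek. This stands beside 9.72% of all probe sets and 15.3% of those with a mean of at least 6. Its median excess was 0.14, 0.11 and -0.003 in the WNT4, Cre and GFP groups, beside 0.74, 0.79 and 0.51 for the 10 markers. The widest swing was that of Cybb, at 4.74, 4.89 and 8.01 on WNT4 arrays, 4.61, 4.89 and 7.79 on Cre arrays, and 4.60, 4.31 and 5.68 on GFP arrays. Mpeg1 (perforin-2) was at 7.51, 7.58 and 8.18 on WNT4 arrays, 7.25, 7.74 and 8.10 on Cre arrays, and 7.60, 6.96 and 8.05 on GFP arrays. Other defining markers showed no such swing: Itgam stayed between 4.39 and 4.73, Aif1 between 4.18 and 4.77, Cx3cr1 between 4.53 and 4.76, Mrc1 between 4.60 and 4.78 and Spi1 between 6.11 and 6.37. Itgam, Aif1, Cx3cr1 and Mrc1 lay within the range of the Y-linked genes given below, so a change in them could have gone unseen. A mean of at least 6 was reached by 7 of the 27 genes.

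Markers of other leukocytes were mostly dim. None of 12 T and NK cell genes, 7 B cell genes, 9 neutrophil genes or 8 mast cell genes was highest on the array numbered 3 in every group, beside 9.72% of all probe sets, and the median excess of these lists lay between -0.16 and 0.09. A mean of at least 6 was reached by 4, 1, 1 and 2 genes of these lists, so a small excess in the others could have gone unseen. Cd8a differed by -0.99 ± 0.24 in WNT4 against GFP, although other T cell genes such as Cd3d (4.86 to 5.22) and Cd2 (4.42 to 4.85) stayed dim. Of 11 dendritic cell and MHC class II genes, H2-Ab1 was highest on the arrays numbered 3, at 4.97, 4.90 and 7.85 on WNT4 arrays, 4.89, 4.90 and 8.06 on Cre arrays, and 4.99, 4.70 and 5.03 on GFP arrays. H2-Aa, whose product pairs with that of H2-Ab1, stayed between 4.90 and 5.29, and Cd74, their chaperone, between 5.51 and 6.08.

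Chemokine genes are expressed by macrophages and by many other cells. Of 13 chemokine and cytokine genes, 4 were highest on the array numbered 3 in every group, Ccl3, Cxcl1, Cxcl2 and Cxcl10, beside 9.72% of all probe sets. The list's median excess was 0.85, 0.85 and 0.02 in the WNT4, Cre and GFP groups, beside 0.74, 0.79 and 0.51 for the 10 markers. Cxcl2 was at 5.0, 5.0 and 11.06 on WNT4 arrays, 4.59, 4.71 and 10.46 on Cre arrays, and 4.54, 4.88 and 7.92 on GFP arrays. Ccl3 was at 4.57, 4.54 and 7.14 on WNT4 arrays, 4.52, 4.58 and 7.19 on Cre arrays, and 4.73, 4.41 and 4.83 on GFP arrays. Like Cd14, Ccl3 stood out on WNT4 3 and Cre 3 and not on GFP 3. Whether the Cd14 signal came from macrophages or from other cells of the culture was not tested.

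Of the remaining cell types, Acta2 among 10 theca and stroma genes was highest on the arrays numbered 3. None of 9 endothelial, 10 oocyte, 7 surface epithelial, 4 red cell or 13 granulosa genes was. The 4 Y-linked genes measured, which female cells lack, lay between 3.87 and 4.86, and this marks the dim end of the scale on which Ptprc and C1qb were read.

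**Figure D4:**
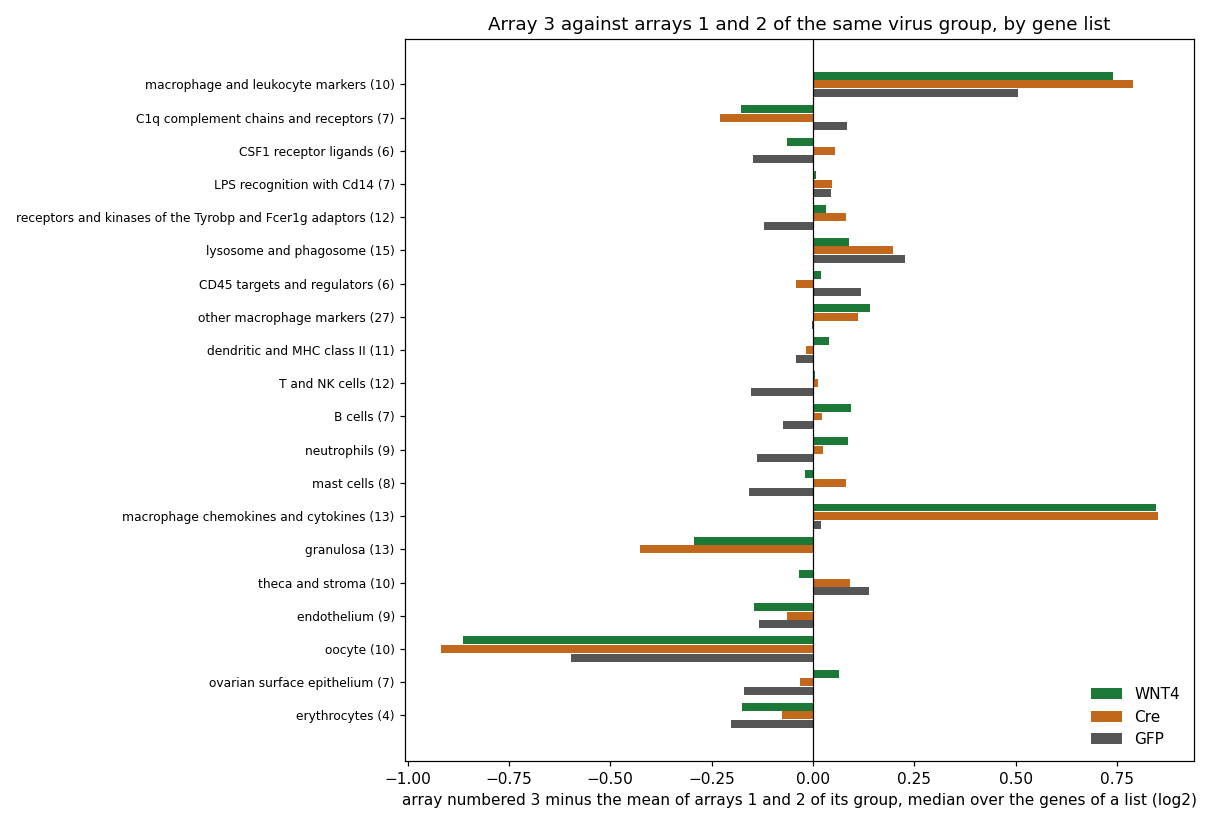
Log2 excess of the array numbered 3 over the mean of arrays 1 and 2 of its virus group, as the median over the genes of each list (number of genes in parentheses), with bars for the WNT4, Cre and GFP groups. The 10 markers stand at 0.74, 0.79 and 0.51, the chemokines at 0.85, 0.85 and 0.02 and the oocyte genes at -0.86, -0.92 and -0.60.

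Genes outside the list whose profile was most like the mean of the 10 markers were ranked by Pearson's r over the 9 arrays, among 6098 genes with a mean of at least 6 and an SD of at least 0.3. In this mean each marker was centred but not scaled. Laptm5 probe set 1447742_at (SD 1.31 over the 9 arrays) therefore weighed more than Tyrobp (SD 0.26). The 8 most alike were Rab7b (0.98), Bves (0.97), Foxj2 (0.96), Cyp1b1 (0.95), Cdc42ep3 (0.95), Rnf122 (0.95), Vash2 (0.95) and Syt11 (0.94), and none of them is a gene of the macrophage lists. Rab7b, which encodes a small GTPase of the endosomal system, was at 7.30, 7.89 and 8.42 on WNT4 arrays, 7.85, 8.09 and 8.58 on Cre arrays, and 8.0, 7.72 and 8.38 on GFP arrays.

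For single markers, Lyz2 was most like Lyz1 (0.97) and Mbp (0.96), and Cd68 most like Rbfox2 (0.97) and Gpc1 (0.96). Csf1r and Adgre1 shared their closest genes, Sh3pxd2b and Zfp398, with r of 0.98 to 0.99. Cd14 was most like Pdk1 (0.99) and Mfsd9 (0.98). Pdk1, a kinase that restrains pyruvate use, was at 7.0, 6.86 and 10.79 on WNT4 arrays, 6.65, 7.01 and 10.71 on Cre arrays, and 6.36, 7.11 and 7.69 on GFP arrays. Laptm5 was most like Cryl1 (0.99) and Boll (0.99), Fcer1g most like Elp3 (0.94) and Ago2 (0.94), and Tyrobp most like Dtna (0.87) and Dok1 (0.87). Cryl1 was at 10.23, 12.83 and 11.74 on WNT4 arrays, 13.23, 13.002 and 13.18 on Cre arrays, and 13.27, 13.22 and 13.17 on GFP arrays, with the same low arrays, WNT4 1 and WNT4 3, as Laptm5 probe set 1447742_at. With 9 arrays and 6098 candidates, r of this size is a description of likeness and carries no test.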

How the data were processed

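The deposited log2 values were made by the authors with RMA, per the submitters' processing notes. RMA as a method combines background correction, quantile normalization and a summary over the probes of a set, and its settings here are not stated. Signal of dim probe sets still holds background, so their differences are understated. Of 45101 probe sets, 64 control probe sets were left out. Symbols came from the platform annotation and were updated through Entrez identifiers with RefSeq (GRCm38.p6, 34741 matched). Among the tested probe sets 34945 had 1 symbol, 932 several and 9160 none.

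limma 3.58.1 in R 4.3.3 was fitted to all 9 arrays with virus as the factor and was tested on simulated data. Of several probe sets of a gene, the brightest on average across all arrays stood for it. Named were all member probe sets, up to 3 genes of lowest p per list in the comparisons with GFP, and the most alike genes, with others singled out as stated. The members and lists were chosen with earlier results of these data known. Lists cover the partners of the markers, other leukocytes, chemokines, other cells of the ovary and Y-linked genes.

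Shared replicate numbers were checked by correlating deviations from the group means over all probe sets. Same-numbered arrays correlated at 0.21, 0.24 and 0.77 in WNT4 against Cre. They correlated at -0.08, 0.01 and 0.35 in WNT4 against GFP, and at -0.04, -0.31 and 0.31 in Cre against GFP. Arrays of unlike number reached 0.32 (WNT4 1 with Cre 2) and 0.28 (WNT4 2 with Cre 1). In WNT4 against Cre, only the arrays numbered 3 therefore stood out as a pair. The main fit has no block. Alternatives covered the block, normalization, filters, probe set choice and left-out arrays. No detection calls, scan dates or scanner values were used here, and the number of arrays limits the precision.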

Additional observations from a re-analysis of the deposited data

How the results depend on the processing

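With replicate number as a block, 0 of the 10 genes were called in each of the 3 comparisons, as without it. At an unadjusted p under 0.05, 2 passed in WNT4 against GFP (Laptm5 and Ptprc, 0.35 ± 0.12) and 2 in WNT4 against Cre (Laptm5 and Fcer1g). Of all 45037 probe sets, 6723 and 3331 passed in these comparisons with the block. The labels give same-numbered arrays nothing in common but the number. Leaving out each array in turn gave 0 to 1 called genes in WNT4 against GFP, the 1 being Laptm5 without WNT4 replicate 2. At an unadjusted p under 0.05 the count was 1 in WNT4 against GFP, 1 in WNT4 against Cre and 6 for replicate number. Without the 3 arrays numbered 3, 12 of 45 pairs had r above 0.5, against 22 with all arrays, and 19 to 23 did when single arrays were left out. The other alternatives, among them quantile normalization, centring, array weights, an intensity trend, a filter on dim probe sets and gene means, kept their counts within 1.5 times or their medians within the replicate spread. Among the differences of the 10 genes, 6 exceeded 1 standard error in the main fit, and none of these changed sign over 119 alternative values. The 24 within 1 standard error changed sign in 56 of 475. These counts cover the 10 markers only, and not the genes of the other lists.

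Calls over all probe sets in WNT4 against GFP, 7 as reported, were 10 with the block, 0 from the arrays of the 2 groups alone, 3 after quantile normalization, 17 after centring on the 75th percentile, 15 without dim probe sets, 1 with an intensity trend, 2 for gene means and 0 to 748 when single arrays were left out, with 748 without WNT4 replicate 2. The causes were not tested. Ptprc and C1qb lie near the dim end, where no detection calls bound them.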
